A study of Rattus norvegicus with 10 samples.

Results

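Imprinted genes are transcribed mainly from the copy inherited from one parent, and many of them set the growth of the fetus and the placenta. Paternally expressed imprinted genes are known mostly for promoting fetal growth and maternally expressed ones for restraining it, although both kinds have exceptions. The best known pair is Igf2, a growth factor made from the paternal copy, and Igf2r, a receptor made from the maternal copy in rodents that carries the factor to lysosomes for breakdown. Here 9 imprinted growth genes were followed in fetal rat hearts, taken from the deposited table by their symbols, out of the 18025 genes listed there. The 6 paternally expressed genes were Igf2, Mest, Dlk1, Peg3, Plagl1 and Ndn, and the 3 maternally expressed ones were Grb10, Cdkn1c and Igf2r. Which parental copy was read was not measured, so that each value is the sum over both copies, and the assignment to a parent is background knowledge from rodents.

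The hearts came from wild-type Sprague-Dawley fetuses at embryonic day 19.5. The dams were 3 months old and were mated with normoglycemic males. Dams of the hyperglycemia (HG) group received streptozotocin, which destroys the insulin-producing beta cells, on 3 consecutive days, and their non-fasting blood glucose was required to exceed 16 mM when measured 7 days after the injection. Dams of the control (CON) group received the citric acid buffer alone. There were 5 stranded mRNA libraries per group, and the sources do not say whether the fetuses of a group came from separate litters, so that the p-values measure the spread between these libraries. The series text places the assignment of the dams before mating and the methods of the study place it after, and the methods mention pooled RNA whereas the libraries hold separate values.

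The values are FPKM, read numbers divided by the authors by gene length and by library size. Levels of different genes can thus be compared only as far as the gene lengths used are right. Libraries held 16672876 to 19109844 reads on genes, as recovered from the steps between the FPKM values. Cardiomyocyte genes were abundant in every library, with a summed level of 8 markers between 19584.7 and 20817 FPKM in CON and between 16819 and 20312 FPKM in HG. HG was compared with CON by limma on log2(FPKM + 0.1) over the 14542 genes that averaged 0.1 FPKM or more, and a gene was called at a Benjamini-Hochberg adjusted p under 0.05. Over all genes tested the median log2 fold change was 0.09, and 0.01 once libraries were rescaled by median-of-ratios factors, so that small increases depend on the scaling.

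All 9 genes passed the filter and all 9 were called, 8 of them higher and 1, Dlk1, lower in HG. Of all genes tested, 28.4% were called higher and 11.8% lower, 40.1% in either direction. The median log2 fold change of the 9 genes was 0.40, against 0.09 over all genes. The 9 genes were chosen with earlier results of these data known. Their counts and median thus describe them and are no test of imprinted genes as a group. With median-of-ratios factors the same counts were found, 8 higher and 1 lower, while 15.6% of all genes were then called higher and 17.5% lower. In each of the 9 genes the HG libraries lay wholly on one side of the CON libraries, which held for 19.3% of all genes in the upward and 8.12% in the downward direction. With the FPKM as deposited, no member passed the further threshold of the study's methods, an absolute log2 fold change above 1, which 1.94% of all genes did. Dlk1 lay close to it at -0.96 and passed it with median-of-ratios factors, at -1.05 (adjusted p = 0.000464, limma). The 9 genes together held 0.278 ± 0.0180% of the summed FPKM in the CON libraries and 0.394 ± 0.0209% in the HG libraries (SD, n = 5 each).

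**Figure D1:**
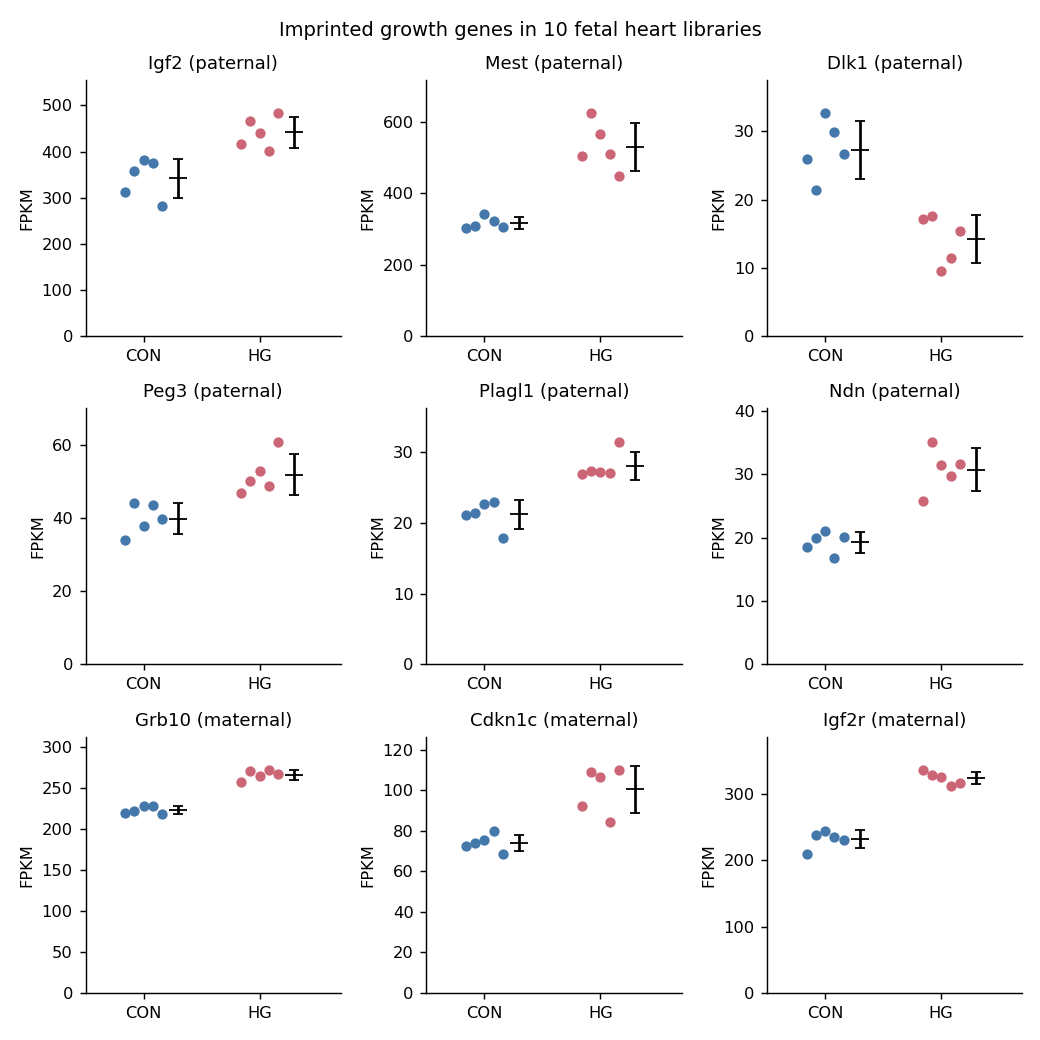
FPKM of the 9 imprinted genes, with 1 point per library (blue CON, red HG) and the mean ± SD of the 5 libraries in black beside the points; each vertical axis starts at 0. In 8 genes every HG library lies above every CON library, and in Dlk1 every HG library lies below.

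Members of the set were among the more abundant transcripts of the fetal heart. Ranked by mean FPKM over the 10 libraries, Mest stood at position 178, Igf2 at 196, Igf2r at 264 and Grb10 at 285 of the 14542 genes, followed by Cdkn1c at 825 and Peg3 at 1588. Ndn, Plagl1 and Dlk1 were lower, at positions 2946, 2993 and 3484. In CON the order of levels was Igf2, Mest, Igf2r, Grb10, Cdkn1c, Peg3, Dlk1, Plagl1 and Ndn. The ranges of neighbours in this order overlapped between Igf2 and Mest, between Igf2r and Grb10, between Dlk1 and Plagl1 and between Plagl1 and Ndn. In HG the order was Mest, Igf2, Igf2r, Grb10, Cdkn1c, Peg3, Ndn, Plagl1 and Dlk1, and only Mest with Igf2 and Ndn with Plagl1 overlapped. Dlk1 thus moved from the seventh place to the last.

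Promoter sequences of RefSeq (build GRCr8) were matched for 8 of the 9 genes, 9 entries of 300 bases in all, since Igf2 has 2. CpG dinucleotides are the sites where DNA methylation can distinguish the parental copies at imprinted loci. They numbered from 7 to 45 per entry, against a median of 7 over all 33469 promoters. Dlk1 had the most with 45, and 1.66% of all promoters held at least as many. Grb10 had 44, Igf2r 30, Plagl1 29, Mest 18, Peg3 16 and Ndn 14, while the Igf2 entries had 19 and 7. The palindrome GGGGCCCC, a core of sites bound by the zinc finger protein that Plagl1 encodes, was searched on both strands, where it reads the same. It was present in 1 of the 9 entries, that of Peg3, and in 0.858% of all promoters. Shown 5′ to 3′ are the 250 bases before the annotated start for Dlk1, the only member that fell, for Mest, the member with the largest increase, and for Peg3, with the palindrome. Capitals mark CpG in Dlk1 (chr6:134192347-134192596, plus strand) and Mest (chr4:60321564-60321813, plus strand), and the palindrome in Peg3 (chr1:76130744-76130993, plus strand).
Dlk1: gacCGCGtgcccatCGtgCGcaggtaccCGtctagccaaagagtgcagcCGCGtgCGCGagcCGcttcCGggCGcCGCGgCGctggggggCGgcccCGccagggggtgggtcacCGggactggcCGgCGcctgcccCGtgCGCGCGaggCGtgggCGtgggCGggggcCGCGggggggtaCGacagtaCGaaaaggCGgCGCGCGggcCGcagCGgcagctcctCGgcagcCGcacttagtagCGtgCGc
Mest: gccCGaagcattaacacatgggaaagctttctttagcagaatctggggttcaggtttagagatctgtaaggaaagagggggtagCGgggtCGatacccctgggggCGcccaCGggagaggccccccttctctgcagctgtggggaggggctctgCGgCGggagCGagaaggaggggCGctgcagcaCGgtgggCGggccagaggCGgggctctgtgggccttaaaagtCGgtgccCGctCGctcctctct
Peg3: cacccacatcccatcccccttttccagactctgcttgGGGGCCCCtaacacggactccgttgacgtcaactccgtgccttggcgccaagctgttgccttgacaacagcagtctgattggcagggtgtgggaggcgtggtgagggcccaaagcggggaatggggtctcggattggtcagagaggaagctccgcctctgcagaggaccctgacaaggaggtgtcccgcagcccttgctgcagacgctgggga
In Peg3 the palindrome began 213 bases before the start. These stretches held 41 CpG in Dlk1 and 15 in Mest. Methylation was not measured in these hearts.

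Of the paternally expressed genes, 5 of 6 rose in HG. Igf2 (NCBI Gene 24483), the main growth factor of fetal tissues, was at 312, 359, 381, 375 and 281 FPKM in CON replicates 1 to 5 and at 417, 467, 440.0, 400.3 and 483 FPKM in HG replicates 1 to 5. The lowest HG library, replicate 4, lay above the highest CON library, replicate 3, and CON replicates 1 and 5 were the lowest of all. The mean rose from 342 ± 43.2 to 442 ± 34.4 FPKM (SD, n = 5 each; limma log2 fold change 0.38 with a standard error of 0.0835, adjusted p = 0.00370). Its log2 fold change was 0.29 with median-of-ratios factors (adjusted p = 0.0180, limma). Of all genes tested, 20.9% had a larger log2 fold change in one direction or the other. The Igf2 gene overlaps 1 other protein-coding gene and a microRNA gene in RefSeq, and Peg3, Plagl1 and Igf2r overlap noncoding ones. How reads in these overlaps were counted is not given.

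Mest (58827), which encodes a membrane protein of the endoplasmic reticulum with the fold of a hydrolase and is active in growing mesodermal tissue, had the largest increase of the set. Its levels were 302, 308, 343, 324 and 307 FPKM in the CON libraries and 507, 626, 566, 510.1 and 448 FPKM in the HG libraries. The CON libraries were close together, whereas HG replicate 5 stood lowest and replicate 2 highest of their group. The mean went from 317 ± 16.6 to 531 ± 67.2 FPKM, which is 1.68-fold (SD, n = 5 each; log2 fold change 0.74 with a standard error of 0.0755, adjusted p = 2.11e-05, limma). In FPKM, Mest exceeded Igf2 in 4 of 5 HG libraries and in 1 of 5 CON libraries. This order rests on the gene lengths used, since Igf2 had more reads than Mest in every library. The reads summed to 218235 for Igf2 and 38503 for Mest in CON, and to 279227 and 64202 in HG. The ratio of Mest to Igf2 within a library, in which library size cancels, was 0.936 ± 0.0979 in CON and 1.21 ± 0.163 in HG, and the groups overlapped in HG replicate 5, at 0.927.

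Peg3 and Plagl1 both encode zinc finger transcription factors, and Plagl1 is known to act on other imprinted genes. Peg3 (103691034) was at 33.9, 44.1, 37.8, 43.4 and 39.8 FPKM in CON and at 46.7, 50.1, 53.0, 48.7 and 60.9 FPKM in HG. It rose from 39.8 ± 4.18 to 51.9 ± 5.52 FPKM, with little space between CON replicate 2 and HG replicate 1 (SD, n = 5 each; log2 fold change 0.38 with a standard error of 0.0815, adjusted p = 0.00286, limma). Plagl1 (25157) was at 21.0, 21.5, 22.7, 22.9 and 17.9 FPKM in CON and at 27.0, 27.3, 27.2, 27.0 and 31.5 FPKM in HG. Here 4 HG libraries were nearly equal and replicate 5 stood above them, as did CON replicate 5 below its own group. The log2 fold change of Plagl1 was 0.40 (standard error 0.0688, adjusted p = 0.000698, limma).

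Ndn (308690), which encodes necdin, a protein of the MAGE family that restrains the cell cycle, was at 18.6, 19.9, 21.0, 16.8 and 20.1 FPKM in CON. In HG it was at 25.7, 35.1, 31.5, 29.7 and 31.6 FPKM, so that every HG library exceeded the highest CON library, replicate 3. The mean rose from 19.3 ± 1.63 to 30.7 ± 3.43 FPKM, which is 1.59-fold (SD, n = 5 each; log2 fold change 0.67 with a standard error of 0.0801, adjusted p = 6.39e-05, limma). Ndn rested on the fewest reads among the members that rose, between 489 and 593 per CON library and between 787 and 1034 per HG library.

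Dlk1 (114587), which encodes a transmembrane protein related to Notch ligands that is present in many immature fetal cells, was the only member that fell. Its levels were 25.9, 21.4, 32.7, 29.9 and 26.7 FPKM in the CON libraries and 17.1, 17.7, 9.60, 11.4 and 15.3 FPKM in the HG libraries. CON replicate 2 was the lowest of its group and still above HG replicate 2, the highest of the HG group. The mean fell from 27.3 ± 4.26 to 14.2 ± 3.56 FPKM, a ratio of 0.521 (SD, n = 5 each; log2 fold change -0.96, 95% interval -1.32 to -0.60, adjusted p = 0.000694, limma). This was the largest change of the 9 genes in either direction, and 2.54% of all genes tested had a larger one. It was also the most variable of them, with a coefficient of variation of 15.6% in CON and 25.0% in HG. Relative to Igf2 in the same library, Dlk1 went from 0.0806 ± 0.0130 to 0.0322 ± 0.00761. Since every HG library was lower for Dlk1 and higher for Igf2, this ratio could not overlap between the groups.

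Liver transcripts moved with the groups in the same direction as Dlk1, which is also abundant in fetal liver. All 6 liver genes examined had a negative log2 fold change and 5 of 6 were called lower, or 4 with median-of-ratios factors. The share called lower over all genes was 11.8%, or 17.5% with those factors. Their summed level ranged from 3.12 to 80.4 FPKM in CON (median 7.60) and from 0.852 to 2.40 FPKM in HG (median 1.55), with CON replicate 3 by far the highest. Albumin (Alb) was at 34.9 FPKM in CON replicate 3, at 0.0552 FPKM in CON replicate 1 and between 0.0544 and 0.449 FPKM in HG. CON replicate 1 had the lowest liver sum of its group, 3.12 FPKM, which was still above every HG library, and its Dlk1 stood at 25.9 FPKM. In that library Alb and Afp (0.0740 FPKM) lay within the HG range, whereas Ttr, at 2.18 FPKM, lay above the highest HG library, at 1.22 FPKM. Without CON replicate 3 the log2 fold change of Dlk1 was -0.89 and it was still called. Beyond these values the part of liver transcripts in the difference was not tested.

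**Figure D2:**
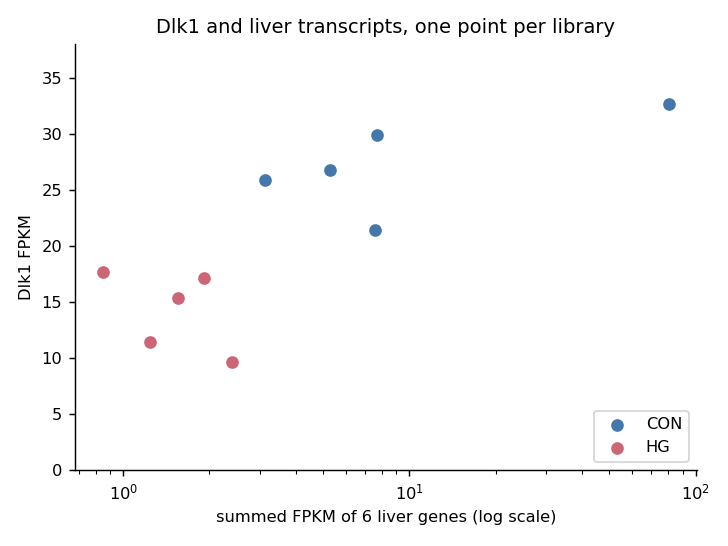
Dlk1 (vertical axis, FPKM from 0) against the summed FPKM of 6 liver genes (horizontal axis, log scale), with 1 point per library (blue CON, red HG). The CON libraries lie above the HG libraries on both axes, and CON replicate 3 lies far to the right at 80.4 FPKM.

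The 3 maternally expressed genes rose together. Igf2r (25151), the receptor that removes Igf2 and carries lysosomal enzymes, was at 209, 238, 244, 235 and 231 FPKM in CON and at 336, 328, 325, 312 and 317 FPKM in HG. Both groups were tight and well apart, with coefficients of variation of 5.80% and 2.91%. The mean rose from 232 ± 13.4 to 323 ± 9.41 FPKM (SD, n = 5 each; log2 fold change 0.48 with a standard error of 0.0430, adjusted p = 7.56e-06, limma), the smallest adjusted p of the set. Grb10 (498416), an adaptor that dampens signalling of the insulin and IGF1 receptors, was at 220.1, 222, 228, 229 and 218 FPKM in CON and at 257, 270.3, 264, 272 and 267 FPKM in HG. Its increase was the smallest of the set but also the most uniform (log2 fold change 0.25 with a standard error of 0.0301, adjusted p = 5.85e-05, limma), and with median-of-ratios factors it was 0.16 (adjusted p = 0.00261, limma).

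Cdkn1c (246060), which encodes the cyclin-dependent kinase inhibitor p57, was at 72.5, 73.8, 75.4, 79.7 and 68.4 FPKM in CON. In HG its levels were 92.4, 109, 107, 84.3 and 110.0 FPKM, with replicates 1 and 4 lower than the others but above every CON library. The mean rose from 74.0 ± 4.12 to 100.5 ± 11.5 FPKM (SD, n = 5 each; log2 fold change 0.43 with a standard error of 0.0725, adjusted p = 0.000598, limma). Genes of dividing cells rose in the same libraries, with 8 of 8 proliferation genes called higher (median log2 fold change 0.46). Among them was Ccnb1, the cyclin of mitosis, from 33.4 ± 1.40 to 50.4 ± 1.88 FPKM. With median-of-ratios factors 6 of 8 were called higher, and Pcna and Mcm2 were not called (adjusted p = 0.242 and 0.137, limma). The share called higher over all genes was 28.4%, or 15.6% with median-of-ratios factors.

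**Figure D3:**
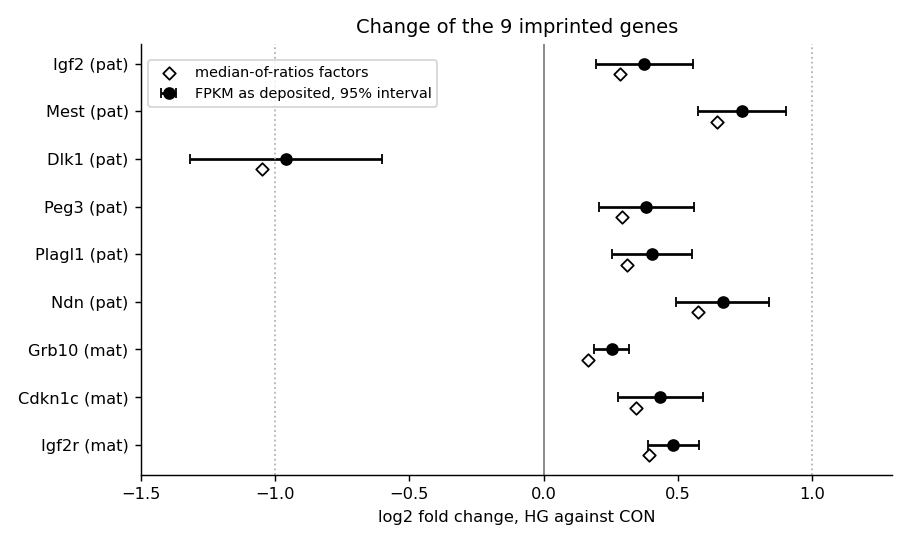
Log2 fold change of HG against CON (horizontal axis) for the 9 imprinted genes, marked pat or mat for the parental copy expressed; filled circles give FPKM as deposited with 95% intervals, open diamonds the values with median-of-ratios factors, and dotted lines -1 and 1. Each interval keeps to one side of 0, with Dlk1 alone on the negative side.

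The proportion of ligand to receptor did not separate the groups. The ratio of Igf2 to Igf2r was 1.49, 1.51, 1.56, 1.60 and 1.22 in the CON libraries and 1.24, 1.42, 1.35, 1.28 and 1.53 in the HG libraries. The groups overlapped, with means of 1.47 ± 0.150 and 1.37 ± 0.113 (SD, n = 5 each). The overlap rested on CON replicate 5, at 1.22, and HG replicate 5, at 1.53. The other CON libraries lay between 1.49 and 1.60, and the other HG libraries between 1.24 and 1.42. The difference of the means was within the spread of the libraries, and no test was made of it. Igf1, the other growth factor of the family and not imprinted, averaged 4.79 ± 0.719 FPKM in CON against 6.29 ± 1.40 FPKM in HG and was not called (log2 fold change 0.37, adjusted p = 0.0625, limma).

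The pathway around Igf2 was followed in a list of ligands, receptors, binding proteins and their regulators. Of 19 listed genes of the IGF axis 17 could be tested, and 9 were called higher, 0 lower and 8 not called (median log2 fold change 0.30). Among all genes tested 28.4% were called higher and 11.8% lower. With median-of-ratios factors 7 were called higher and 1 lower, the insulin receptor gene Insr, against 15.6% and 17.5% of all genes. The binding protein Igfbp3, which holds IGFs in the extracellular space, stood out with 32.2, 48.7, 35.6, 43.4 and 37.8 FPKM in CON and 136, 151, 149.6, 106 and 115 FPKM in HG. No other gene of this list had an absolute log2 fold change above 1 (Igfbp3 1.73, standard error 0.120, adjusted p = 1.42e-06, limma). Igfbp4 rose from 86.0 ± 4.50 to 116 ± 7.97 FPKM and Igfbp5 from 75.1 ± 4.60 to 102 ± 10.6 FPKM (SD, n = 5 each). Relative to Igfbp3 in the same library, Igf2 went from 8.77 ± 1.44 to 3.42 ± 0.543, without overlap.

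The 3 RNA-binding proteins named for binding Igf2 mRNA rose together. Igf2bp1 went from 11.1 ± 1.06 to 17.0 ± 1.47 FPKM, Igf2bp2 from 18.2 ± 0.760 to 23.4 ± 0.972 FPKM and Igf2bp3 from 14.9 ± 0.405 to 18.3 ± 0.963 FPKM (SD, n = 5 each). Their log2 fold changes were 0.62, 0.37 and 0.29, and the groups did not overlap in any of them (adjusted p = 7.08e-05, 5.67e-05 and 0.000322, limma). Of all genes tested, 19.3% had every HG library above every CON library, and 28.4% were called higher. Among the receptors and adaptors, Igf1r was called with a log2 fold change of 0.24 and Insr was not, with -0.07 (adjusted p = 0.0284 and 0.187, limma). With median-of-ratios factors this was turned round, since Insr was called lower with -0.16 (adjusted p = 0.00496) and Igf1r was not called, with 0.15 (adjusted p = 0.159, limma).

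**Figure D4:**
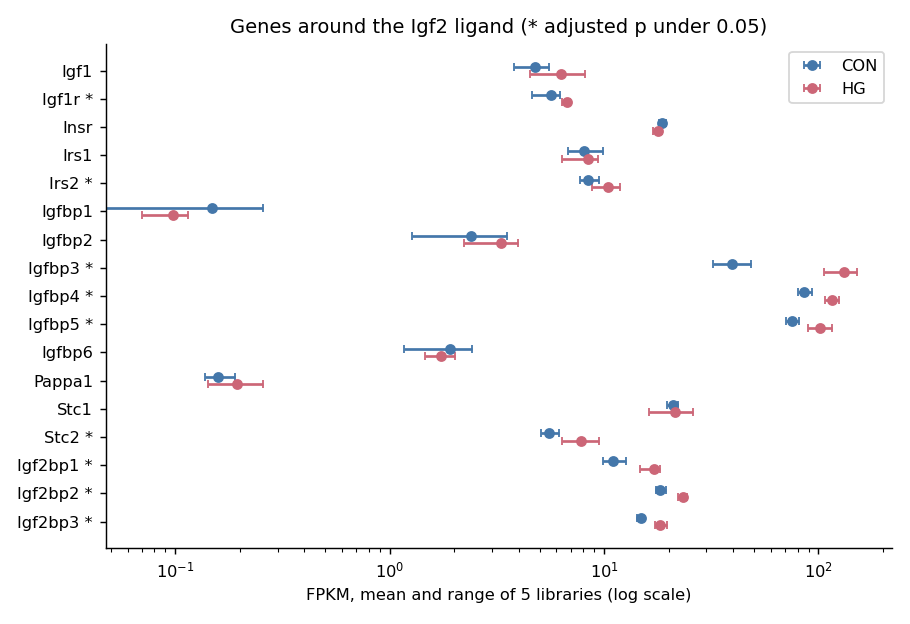
FPKM of the 17 tested genes of the IGF axis on a log scale, with the mean (point) and the lowest and highest library (bar) of 5 CON (blue) and 5 HG (red) libraries; an asterisk marks an adjusted p under 0.05. Igfbp3 shows the widest gap between the groups, and every asterisk belongs to a gene that is higher in HG. The CON bar of Igfbp1 runs off the axis because 1 library is listed at 0.

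Imprinted genes outside the set were followed in a wider list of 44, of which 37 are listed in the table and 31 were tested. Of the 31 genes, 13 were called higher, 2 lower and 16 not called, with a median log2 fold change of 0.17. The shares over all genes tested were 28.4% higher and 11.8% lower, with a median of 0.09. With median-of-ratios factors 7 were called higher and 4 lower (median 0.08), against 15.6% and 17.5% of all genes. Among the 16 paternally expressed genes tested 9 were called higher and 0 lower (median 0.30), and among the 15 maternally expressed ones 4 were called higher and 2 lower (median 0.09). With median-of-ratios factors the paternally expressed genes had 5 higher and 0 lower, while the balance of the maternally expressed ones turned to 2 higher and 4 lower (median 0.00). Many of them are imprinted only in some tissues, and the contrast of both kinds of gene was not tested.

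The genes next to Ndn on the chromosome moved with it. In the order of protein-coding genes of RefSeq, Magel2, Mkrn3 and Peg12 directly follow Ndn, and all are paternally expressed. Peg12 rose from 3.17 ± 0.375 to 5.96 ± 0.199 FPKM without overlap (SD, n = 5 each; log2 fold change 0.90, adjusted p = 6.85e-06, limma). Mkrn3, a gene for a zinc finger ubiquitin ligase, averaged 0.866 ± 0.208 FPKM in CON against 1.72 ± 0.360 FPKM in HG (log2 fold change 0.91, adjusted p = 0.00127, limma). Magel2 rose as well (log2 fold change 0.66, adjusted p = 0.0320, limma), on 123 reads over the CON and 217 reads over the HG libraries, and was not called with median-of-ratios factors (adjusted p = 0.0564). Farther off, Ube3a and Atp10a, maternally expressed in brain, had log2 fold changes of 0.13 and 0.11 and were not called. Snrpn and Snurf overlap each other, and with at most 0.239 and 0.353 FPKM in any library their values are uncertain.

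Beside Igf2 and Cdkn1c, which lie in one imprinted region, Tssc4 rose (9.96 ± 0.507 to 12.4 ± 0.542 FPKM) and Kcnq1, a potassium channel gene adjacent to Cdkn1c, fell (6.64 ± 0.215 to 5.91 ± 0.239 FPKM; SD, n = 5 each). Their log2 fold changes were 0.31 and -0.17 (adjusted p = 0.000419 and 0.0207, limma). Osbpl5 was called with 0.19, and not with median-of-ratios factors (adjusted p = 0.0373 and 0.225, limma). Ascl2 and Slc22a18 of the same region reached at most 0.594 and 1.05 FPKM in any library and were not called. Tssc4 was also called with median-of-ratios factors (adjusted p = 0.00531, limma), whereas the call of Kcnq1 was lost with the replicate number as a block (adjusted p = 0.0662) and without CON replicate 1 or HG replicate 3.

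Rtl1, with 1 protein-coding gene between it and Dlk1, was nearly silent. It had 8, 10, 9, 2 and 2 reads in the CON libraries and 0, 2, 1, 0 and 1 reads in the HG libraries. It fell below the filter and was not tested, but the sum of its reads was 31 in CON and 4 in HG, the same direction as Dlk1. Dio3, with 3 protein-coding genes between it and Dlk1, held 2 reads in CON and 2 in HG and was not tested either. Next to Peg3, Usp29 rose from 0.524 ± 0.0432 to 0.879 ± 0.105 FPKM (SD, n = 5 each; log2 fold change 0.65, adjusted p = 0.00111, limma), and the maternally expressed Zim1 was not called (log2 fold change -0.13, adjusted p = 0.614, limma). Copg2, the gene that follows Mest, was not called either (log2 fold change -0.04, adjusted p = 0.476, limma), and was called lower with median-of-ratios factors (-0.13, adjusted p = 0.0420). Klf14, with 2 protein-coding genes between it and Mest, rested on 63 reads over the CON and 147 over the HG libraries (log2 fold change 0.96, adjusted p = 0.00694, limma).

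At other loci Impact, a regulator of the response to amino acid shortage, rose with a log2 fold change of 0.51 (8.87 ± 1.05 to 12.7 ± 1.07 FPKM), and Peg10, a gene derived from a retrotransposon, with 0.31 (9.23 ± 1.08 to 11.4 ± 0.684 FPKM; SD, n = 5 each; adjusted p = 0.000433 and 0.00761, limma). Asb4, maternally expressed and a substrate adaptor of a ubiquitin ligase, fell from 30.4 ± 1.22 to 21.9 ± 2.81 FPKM without overlap (log2 fold change -0.48, adjusted p = 0.000492, limma). Ppp1r9a, of the same cluster as Peg10 and Asb4, was called with 0.31 and not with median-of-ratios factors (adjusted p = 0.0469 and 0.136, limma).

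**Figure D5:**
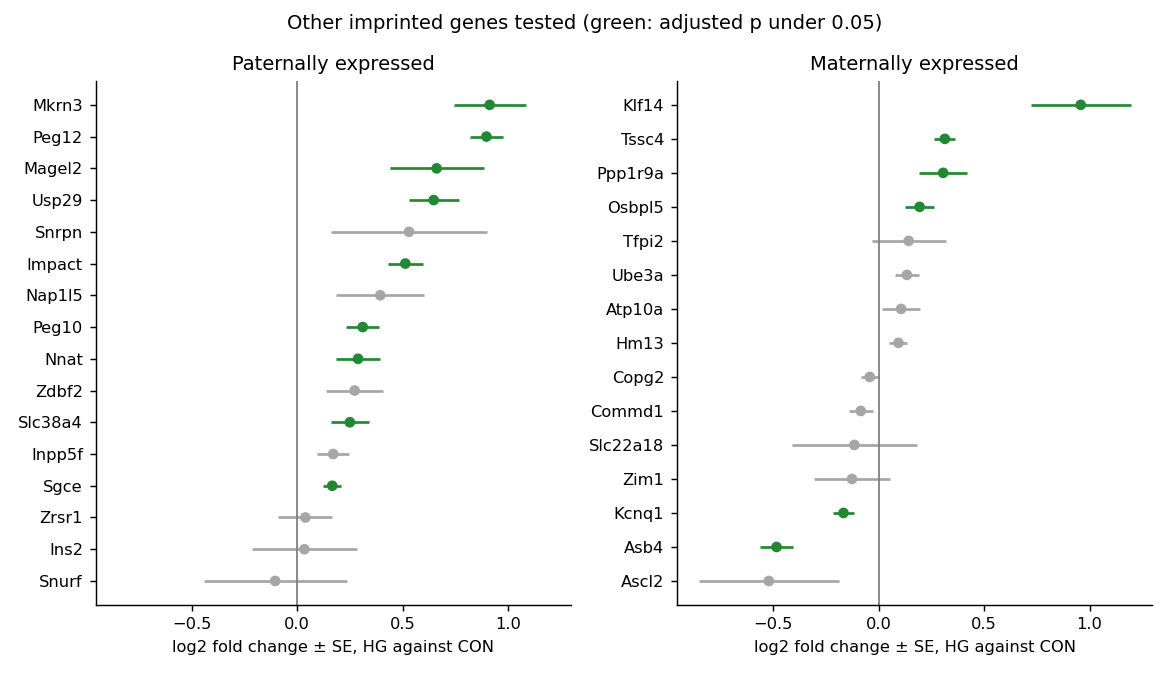
Log2 fold change ± standard error (horizontal axis) of the 31 other imprinted genes tested, paternally expressed on the left and maternally expressed on the right; green marks an adjusted p under 0.05. The 9 green genes on the left lie to the right of 0, while on the right 4 lie above 0 and 2, Kcnq1 and Asb4, below.

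Relatives of the members that are not imprinted gave mixed values, with 4 of 8 tested genes called higher and 0 lower. With median-of-ratios factors 2 were called higher and 1 lower. The shares over all genes were 28.4% higher and 11.8% lower, or 15.6% and 17.5% with median-of-ratios factors. Grb14, which shares the adaptor fold of Grb10, averaged 55.4 ± 1.39 FPKM in CON against 51.9 ± 3.97 FPKM in HG and was not called (log2 fold change -0.10, adjusted p = 0.138, limma), but was called lower with median-of-ratios factors (-0.19, adjusted p = 0.0183). The ratio of Grb10 to Grb14 was accordingly higher in every HG library, 5.16 ± 0.375 against 4.03 ± 0.121 in CON. Grb7 of the same family was at 0.323 FPKM in both groups (log2 fold change -0.02, adjusted p = 0.946, limma). For Cdkn1c, the relative Cdkn1b was called with 0.20 (adjusted p = 0.00634) and Cdkn1a was not, with -0.16 (adjusted p = 0.228, limma). M6pr, the other receptor for lysosomal enzymes beside Igf2r, had 0.21 (adjusted p = 0.00467, limma). Neither Cdkn1b nor M6pr was called with median-of-ratios factors (adjusted p = 0.104 and 0.115). Of the relatives of Plagl1, Plagl2 was called with 0.28 (adjusted p = 0.00618) and Plag1 was not, with 0.30 (adjusted p = 0.0594, limma). Maged1, of the same family as Ndn, rose with 0.39 (112 ± 5.56 to 147 ± 7.05 FPKM; adjusted p = 3.86e-05, limma).

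Across the 10 libraries, the genes whose centred log2 values lay closest to those of Igf2 were Exo5, Ift22 and Zbtb12, with root mean square differences of 0.0596, 0.0694 and 0.0699. The median over the 11708 genes that averaged 1 FPKM or more was 0.234. For Dlk1 they were Ust, Ckm, the muscle creatine kinase, and Pink1, a kinase of mitochondrial quality control, with 0.226, 0.240 and 0.240 against a median of 0.609. No gene followed Dlk1 as closely as those near Igf2 followed Igf2. All 10 libraries and the group difference enter these values.

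Other cell types shifted between the groups too, and their part in the values above was not tested beyond the Dlk1 values given. In bulk hearts, fewer cells of a type and less RNA per cell cannot be told apart. Among all genes tested 11.8% were called lower and 28.4% higher, or 17.5% and 15.6% with median-of-ratios factors. Of 8 cardiomyocyte genes 6 were called lower and 1 higher, and of 7 fibroblast genes 3 were called lower and 2 higher. With median-of-ratios factors 7 cardiomyocyte genes were called lower and 1 higher, and 5 fibroblast genes lower and 2 higher. Their summed levels overlapped, at 1664 to 1952 FPKM in CON and 1503 to 1739 FPKM in HG for fibroblasts. The sums of 6 endothelial genes overlapped too, at 232 to 251 FPKM and 236 to 259 FPKM. The sums of 6 smooth muscle and pericyte genes did not overlap, at 762 to 885 FPKM in CON and 976 to 1228 FPKM in HG. Acta2 was the largest part of these sums. Of the 6 genes 3 were called higher, 1, Rgs5, lower (log2 fold change -0.31) and 2 not called. The sums of 5 macrophage genes lay close together without overlap, at 18.6 to 23.3 and 23.4 to 29.0 FPKM as deposited. Of these 5 genes 3 were called higher and 2 not called, and with median-of-ratios factors 2 were called higher. The 5 epicardial genes went in both directions, with Tbx18 called higher (log2 fold change 0.52), Upk1b called lower (-0.71) and a median of -0.39, although their sum, of which Tbx18 was the largest part, was 18.7 to 21.6 FPKM in CON and 21.7 to 26.7 FPKM in HG. Of 9 red cell genes 6 were called lower and 2 higher, or 7 and 2 with median-of-ratios factors. Their sum, made up almost wholly of Hba-a1, Hba-a2 and Hbb, was 9939 to 18732 FPKM in CON and 7887 to 11180 FPKM in HG. The 2 that rose were the embryonic globin genes Hbz, from 2.39 ± 0.856 to 42.9 ± 21.2 FPKM, and Hbe1, from 47.6 ± 11.5 to 234 ± 94.7 FPKM (SD, n = 5 each), both without overlap. The determination genes of skeletal muscle were nearly absent, with Myod1 at most at 0.188 FPKM.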

How the data were processed

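RNA of fetal rat hearts was sequenced from stranded mRNA libraries, 5 CON and 5 HG, grouped by the labels. The authors deposited FPKM values per gene and library. The submitters' processing notes name fastp, HISAT2, HTSeq, R 3.2.0 and the build mRatBN7.2, and the annotation, the strand setting and the parameters are not given in the sources used here. The labels say heart tissue, whereas the study also speaks of cardiomyocytes.

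The members and gene lists were chosen with earlier results of these data known. Of 18025 genes, 14542 that averaged 0.1 FPKM or more were fitted with limma 3.58.1 (R 4.3.3, mean-variance trend) on log2(FPKM + 0.1), a scale that understates the change of low genes. Adjusted p-values are two-sided and Benjamini-Hochberg adjusted over all genes tested. The count test of the study's methods needs read counts, which FPKM are not. Whole reads were recovered from the FPKM steps, giving 16672876 to 19109844 reads on genes per library, and served for depth and a voom alternative. The number of columns left unused was 0. The procedure was tested on simulated data.

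All members were named. Of other imprinted genes, the 4 paternally and 4 maternally expressed ones with the largest absolute log2 fold change among called genes averaging 1 FPKM or more were named. Of the IGF axis the 6 with the smallest adjusted p were named, with all tested relatives and the 3 genes nearest in pattern to Igf2 and to Dlk1. Genes beside a member on the chromosome, Igf1, Igf1r, Insr and Ccnb1 were named after their values were seen. Promoters and gene order are from RefSeq (GRCr8), a build other than that of the notes. H19, Meg3, Rian, Mirg, Airn, Kcnq1ot1 and Slc22a2 were not analysed here. Alternatives were other pseudocounts, filters and scalings, no trend, array weights, a replicate block, voom, and each library left out. Tables and figures were made with Python 3.11.15, numpy 2.4.6, pandas 2.3.3 and matplotlib 3.10.9.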

Additional observations from a re-analysis of the deposited data

Results flagged for a closer look

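In groups of 5 libraries, 20 groups of values were examined for a library far from the others, and chance marks about 1 in 20. Plagl1 stood at 31.5 FPKM in HG replicate 5, while the other HG libraries lay between 27.0 and 27.3 FPKM, so that the gap took 0.914 of the range of the group (critical value 0.710). Without this library the log2 fold change of Plagl1 was 0.36 and it was still called. The ratio of Igf2 to Igf2r was 1.22 in CON replicate 5, and between 1.49 and 1.60 in the other CON libraries, a gap of 0.727 of the range. Without it the difference of the mean ratios, HG minus CON, was -0.17 in place of -0.11.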

How the results depend on the processing

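Each of the 9 genes kept its direction and an adjusted p under 0.05 in limma under all 21 alternatives, 189 of 189 values, with the highest adjusted p, 0.0180, for Igf2 with median-of-ratios factors. The log2 fold change of Dlk1 ranged from -1.05 to -0.83, of Mest from 0.65 to 0.82 and of Grb10 from 0.16 to 0.34. Leaving out 1 library at a time gave 10 to 14 other imprinted genes called, against 15 with all libraries, and 8 to 10 genes of the IGF axis, against 9. Requiring an absolute log2 fold change above 1 as well left 0 paternally and 0 maternally expressed members, 0 other imprinted genes, 1 gene of the IGF axis and 282 of all genes, against 5836 without it. This was applied to the FPKM as deposited, and Dlk1 lay past -1 with median-of-ratios factors (-1.05), voom (-1.05), quantile normalization (-1.03) and array weights (-1.02), and without CON replicate 2, HG replicate 1 or HG replicate 2 (-1.04, -1.04 and -1.05). Depth limits Rtl1, Magel2 and Klf14, which rested on few reads.

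The labels number the libraries 1 to 5 in both groups. Deviations of same-numbered libraries correlated between -0.13 and 0.11, and 0 of 5 correlated best with their own number, so that they were taken to share only a number. With the replicate block 5096 genes were called, with all 6 paternally and 3 maternally expressed members, 12 other imprinted genes and 9 of the IGF axis among them.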
